A study of Mus musculus with 20 samples.

Results

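The 35 genes described here encode the glucose and lactate transporters, the enzymes of glycolysis, the kinases that steer it, a group of hypoxia-inducible factor (HIF) targets outside glycolysis and the HIF alpha subunits Hif1a and Epas1. They were taken by symbol from a list of hypoxia and glycolysis genes, chosen with earlier results of these data known. No cut on their values was made among the 51826 genes of the gene-level count table of mouse tumour RNA. The table held 20 libraries, 6 from primary tumours and 14 from lung metastases, each metastasis being matched with a primary tumour. Tumours were from mice of mixed background, and the series concerns sarcoma metastasis and the non-coding RNA NEAT1. All groups shared the labelled genotype, no library was labelled with a treatment, and the tumour's driver alleles, the site of the primary tumours, the age and sex of the animals are not given in the labels, and no non-tumour tissue was among the libraries. There were 4 metastases in set 1 and in set 2, 2 in set 3 and in set 6, and 1 in set 4 and in set 5. A primary tumour is written P with its set number and a metastasis M with its set and number (M5-x had no number). Metastases of 1 set may come from 1 animal, so the p-values below measure the spread between these libraries.

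In glycolysis, glucose enters the cell through facilitative transporters and is cut to pyruvate by a chain of cytosolic enzymes. Lactate dehydrogenase turns pyruvate to lactate, which leaves through monocarboxylate transporters. When oxygen is low, prolyl hydroxylases cease to mark the HIF alpha subunits for destruction, and the stabilised subunits bind hypoxia response elements and raise the RNA of many of these genes. HIF activity is set largely by protein stability, so the RNA of Hif1a itself is a poor gauge of it, and no library here came from tissue of known oxygen tension.

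Library totals ran from 20603620 to 36824370 counts. Levels are given as CPM, counts scaled to the library's size after trimmed-mean (TMM) correction, and differences as log2 fold changes of metastasis over primary within sets, with their standard error (SE). Genes were called at an adjusted p under 0.05 in edgeR's quasi-likelihood test over 18452 genes. All 35 members passed the filter on low counts. Among all genes tested, 7.34% rose and 6.44% fell in metastases.

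Several libraries stood apart. In P4, M4-1 and M3-2, genes rich in G and C were low. Genes were split into quintiles by GC content, and the median log2 level of the top quintile (over 55.9%) minus that of the bottom quintile (under 44.3%) was -4.21 in P4, -3.18 in M4-1 and -2.21 in M3-2. The same difference ran from -0.33 to 0.90 in the other 17 libraries. The GC contents of the 35 members lay between those of Hif1a (41.3%) and Ddit4 (57.9%), so the members were also fitted without these 3 libraries and with a GC trend per library as an offset. Both libraries of set 4 were affected. P4 and P6 also nearly lacked the RNA of host tissue. The summed level of 8 endothelial markers was 1.98 CPM in P4 and 2.41 in P6 against 225 to 546 in the other 4 primary tumours, and that of 14 skeletal muscle markers was 9.67 and 2.41 against 5242 to 11849. Both held the highest sums of 6 cell cycle genes, 3871 and 2516 CPM against 973 to 1150 in the other primary tumours. The mesenchymal gene Vim was present in every library (1658 to 6887 CPM). Of the 8 mesenchymal markers, Col1a1 and Thy1 were nearly absent from P4 (1.43 and 0 CPM) and low in P6 (33.8 and 0.436 CPM). Col1a1 was at 967 to 1609 CPM in P1, P2, P3 and P5. Pdgfra and Pdgfrb were low in P4 (14.4 and 4.33 CPM) and not in P6 (1055 and 185 CPM). Col1a2, Col3a1 and Fn1 were present in P4, at 1807.5, 3007.9 and 993.51 CPM. Of 12 lung epithelial markers, 11 rose in metastases (sums of 1.42 to 54.1 CPM in primary tumours and 7.95 to 13649 in metastases), and M2-3 and M2-4, with 12.4 and 7.95 CPM, held little lung RNA in spite of their label. With both left out, the same number of members rose (4) and fell (1). In bulk tissue, fewer cells of a type and less RNA per cell cannot be told apart.

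**Figure D1:**
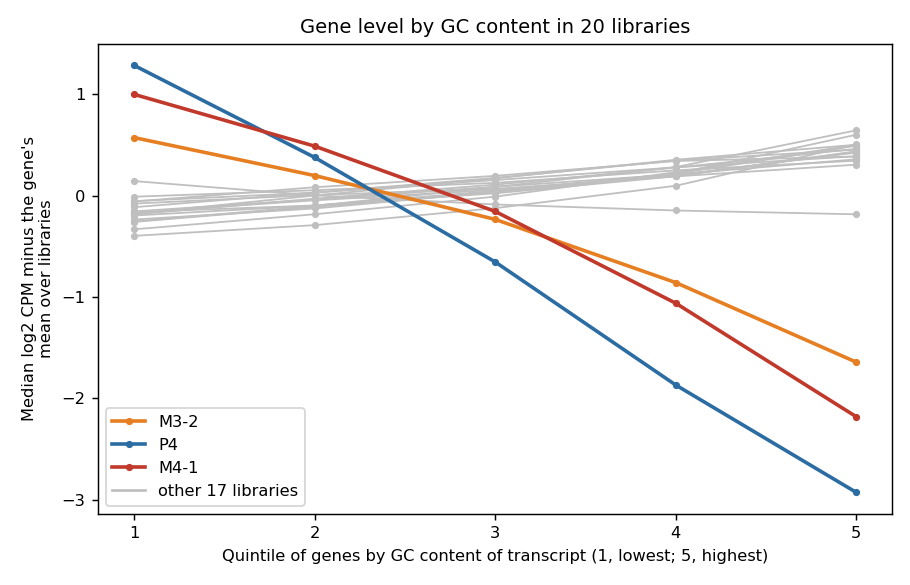
Median log2 CPM minus the gene's mean over libraries (vertical axis) for protein-coding genes in quintiles of GC content (horizontal axis), 1 line per library. P4, M4-1 and M3-2 decline, with differences between the highest and the lowest quintile of -4.21, -3.18 and -2.21, while those of the other 17 libraries run from -0.33 to 0.90.

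Of the 35 members, 4 rose and 1 fell in metastases, beside the 7.34% and 6.44% of all genes given above. The median log2 fold change was -0.12 over the members against -0.00032 over all genes tested. The genes that rose were 3 of the 4 transporters and 1 of the 16 glycolytic enzymes, and the gene that fell was another enzyme. None of the 3 kinases, the 10 HIF targets outside glycolysis or the 2 HIF subunits passed. Without the 3 libraries low in GC-rich genes, 5 members rose and 1 fell (9.28% and 7.63% of 18555 genes tested), and with GC offsets 4 rose and 1 fell (8.49% and 8.84% of all genes).

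**Figure D2:**
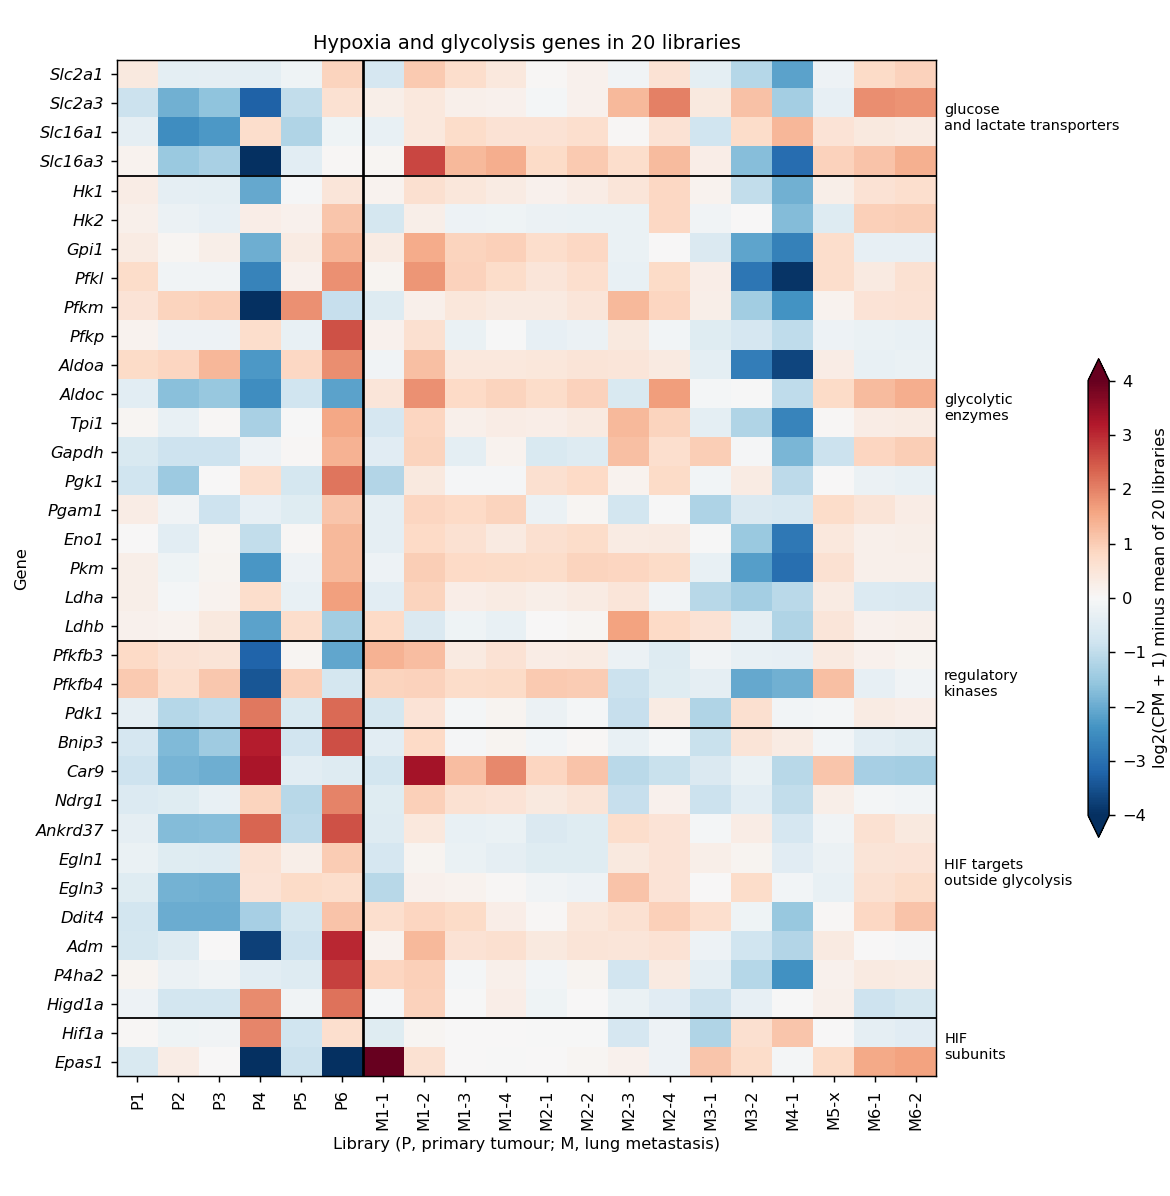
Level of each of the 35 genes (rows, by role) in each library (columns, primary tumours left of the black line), as log2(CPM + 1) minus the gene's mean over 20 libraries, with colours capped at 4 in either direction. P4 and P6 share high Bnip3, Ankrd37, Pdk1 and Higd1a, and P4, M4-1 and M3-2 share low Aldoa, Pkm, Pfkl and Gpi1.

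Most of the genes that rose were transporters. Slc2a1 and Slc2a3 encode the glucose transporters GLUT1 and GLUT3. Slc16a1 and Slc16a3 encode the monocarboxylate transporters MCT1 and MCT4, of which MCT4 is the main lactate exporter of glycolytic cells. Slc2a3, Slc16a1 and Slc16a3 rose, and Slc2a1 did not pass. To show the candidate HIF sites beside these values, the 250 bases before the RefSeq start of Slc16a1 (chr3:104638414-104638663, plus strand, GRCm38.p6) and Slc16a3 (chr11:120948817-120949066, plus strand) are printed 5′ to 3′, with the core of the hypoxia response element (ACGTG or GCGTG on either strand) in capitals. Slc2a3 had no entry in the RefSeq promoter table.

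Slc16a1: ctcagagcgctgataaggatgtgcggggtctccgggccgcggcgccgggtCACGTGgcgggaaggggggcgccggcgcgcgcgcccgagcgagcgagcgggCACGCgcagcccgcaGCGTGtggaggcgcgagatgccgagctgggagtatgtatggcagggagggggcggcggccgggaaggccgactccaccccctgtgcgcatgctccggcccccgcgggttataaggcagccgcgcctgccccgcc

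Slc16a3: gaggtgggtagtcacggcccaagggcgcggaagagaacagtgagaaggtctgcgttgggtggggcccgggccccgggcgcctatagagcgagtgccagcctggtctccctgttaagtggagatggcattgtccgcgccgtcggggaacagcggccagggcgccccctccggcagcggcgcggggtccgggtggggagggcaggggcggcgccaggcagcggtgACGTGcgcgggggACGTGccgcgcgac

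Slc2a3 (ENSMUSG00000003153.10, chromosome 6, 122727809 to 122801640, minus strand) was at 3.31, 15.9 and 61.4 CPM in the lowest, the median and the highest primary tumour and at 15.0, 49.9 and 162 CPM in the metastases. The groups overlapped, but the metastases of each set had a higher mean log2 level than their own primary tumour in 6 of 6 sets, by 0.70 in set 5 to 2.87 in set 2. The log2 fold change was 1.79 (SE 0.375, adjusted p = 0.00664), a 3.46-fold rise. It was 1.67 (adjusted p = 0.0150) without the 3 low-GC libraries and 1.73 (0.00953) with GC offsets. The highest levels were in M2-4 (162 CPM), M6-1 (148 CPM), M6-2 (140 CPM) and M2-3 (99.8 CPM). M2-3 and M2-4 were the metastases with the least lung epithelial RNA, and M1-1, with the most, held 47.0 CPM of Slc2a3. With M2-3 and M2-4 left out, the log2 fold change was 1.62 (adjusted p = 0.00113).

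Slc16a1 (chromosome 3, 104638668 to 104658462, plus strand) ran from 64.8 CPM in P2 through a median of 222 to 600 CPM in P4, and from 210 CPM in M3-1 through a median of 539 to 920 CPM in M4-1. P1, P4 and P6 lay within the range of the metastases, and P4 alone above their median. Its log2 fold change was 1.45 (SE 0.352, adjusted p = 0.0139), with the metastases higher in 6 of 6 sets. It kept its call without the low-GC libraries (1.44, adjusted p = 0.00874) and with GC offsets (1.52, adjusted p = 0.00383), and lost it in 6 of 21 settings, with log2 fold changes of 1.02 to 1.57 and adjusted p-values of 0.0727 to 0.137. These were the fits without the set as a block (1.02), without set 2 (1.18), with the lung epithelial index as a covariate (1.49), with the lung and muscle indices (1.18), with the metastases of a set summed (1.57) and with only the first metastasis of a set (1.26). Among the transporters it was the most abundant per length, with a median of 110 CPM per kb of exon over the 20 libraries against 27.8 for Slc2a1, 10.5 for Slc16a3 and 6.31 for Slc2a3.

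Slc16a3 (chromosome 11, 120948480 to 120960868, plus strand) was not counted at all in P4 and had 123 counts (3.76 CPM) in M4-1, the lowest metastasis. The other 5 primary tumours lay between 13.0 and 43.2 CPM, and the metastases had a median of 77.8 and a maximum of 255 CPM in M1-2. Its log2 fold change was 1.85 (SE 0.504, adjusted p = 0.0235), higher in 6 of 6 sets, and 1.73 (SE 0.357, adjusted p = 0.00772) without the low-GC libraries, where set 4 does not enter. With GC offsets it was 1.73 (adjusted p = 0.0140). The call was lost in 9 of 21 settings, with log2 fold changes of 1.69 to 2.06 and adjusted p-values of 0.0518 to 0.224. These were the fits without the set as a block, without sets 1, 2 or 6 in turn, with no filter on low counts, with the lung index alone or beside the muscle index, and with the metastases of a set summed or only the first of them taken.

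Slc2a1 (chromosome 4, 119108711 to 119137983, plus strand) was between 76.1 and 188 CPM in primary tumours and up to 211 CPM in metastases, lowest in M4-1. Its log2 fold change of -0.14 (SE 0.281, adjusted p = 0.793) did not pass. Thus GLUT3 and both lactate transporters were higher in metastases, while the GLUT1 estimate lay near 0 and changed sign without the low-GC libraries (0.20, adjusted p = 0.573). With GC offsets it was -0.22 (adjusted p = 0.698).

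**Figure D3:**
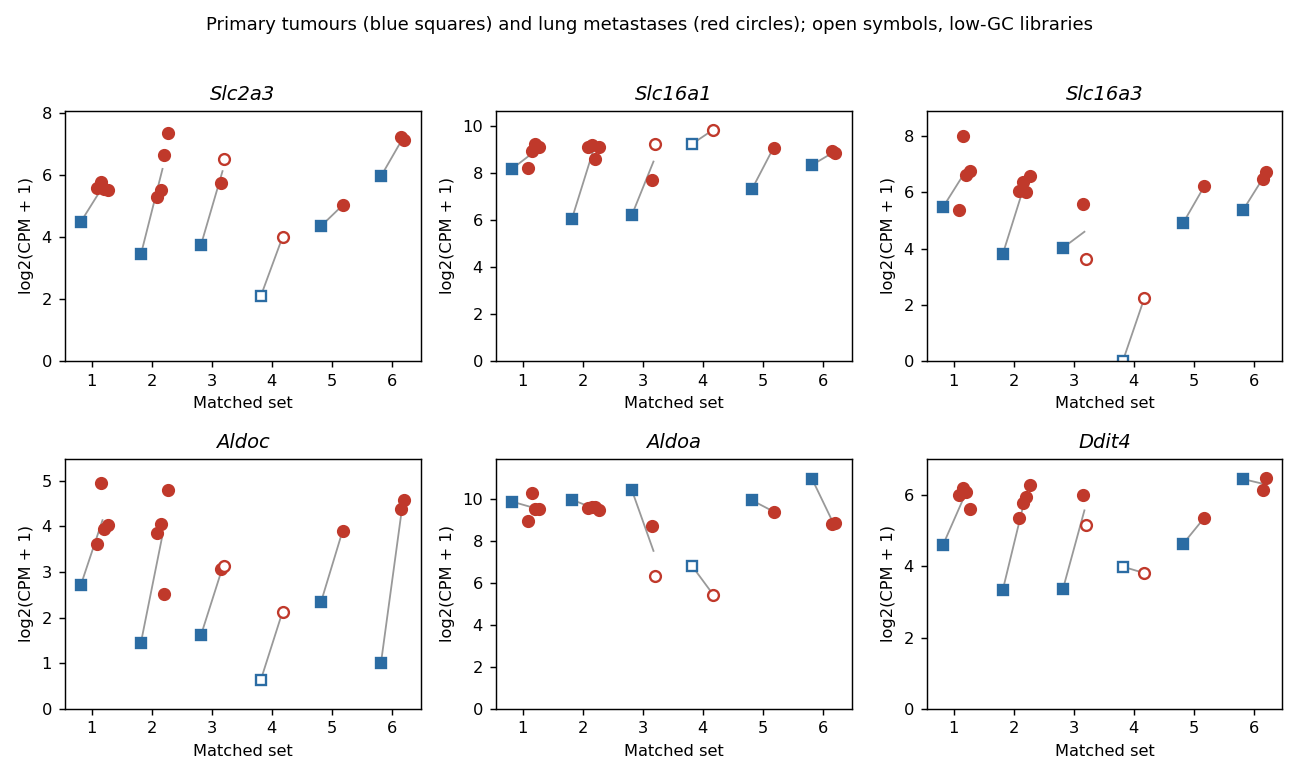
Level (log2(CPM + 1)) of the 5 members that passed the test and of Ddit4, by matched set. Blue squares are primary tumours, red circles metastases, open symbols the 3 low-GC libraries, and grey lines join a primary tumour with the mean of its metastases. The lines of Slc2a3, Slc16a1, Slc16a3 and Aldoc climb in 6 of 6 sets and those of Aldoa descend in 6 of 6.

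Among the glycolytic enzymes, the aldolase isozymes moved in opposite directions. Aldoa encodes the aldolase of muscle and most other tissues, and Aldoc the aldolase known from brain. Aldoc (chromosome 11, 78322968 to 78327781, plus strand) was at 0.56, 1.89 and 5.56 CPM in the lowest, the median and the highest primary tumour and at 3.36, 14.1 and 30.0 CPM in metastases. Of the metastases, only M4-1 (3.36 CPM) and M2-3 (4.76 CPM) lay within the range of the primary tumours. The log2 fold change was 2.49 (SE 0.420, adjusted p = 0.00228), a 5.60-fold rise seen in 6 of 6 sets, from 1.56 in set 1 to 4.33 in set 6. It was 2.53 (adjusted p = 0.00572) without the low-GC libraries and 2.46 (0.00157) with GC offsets. Aldoc passed in each of 21 other settings, with log2 fold changes of 2.15 to 3.28 and adjusted p-values of 2.6e-09 to 0.0479, which no other member did. The result rests on a lowly expressed gene, with a median of 2.91 CPM per kb of exon against 255 for Aldoa.

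Aldoa (chromosome 7, 126795234 to 126800751, minus strand) ran from 112 CPM in P4 through a median of 991 to 2005 CPM in P6, and from 41.9 CPM in M4-1 through a median of 693 to 1255 CPM in M1-2. The groups overlapped widely, but the metastases were lower in 6 of 6 sets, with log2 differences from -0.29 in set 1 to -2.90 in set 3. The log2 fold change was -1.24 (SE 0.344, adjusted p = 0.0253). It was -0.95 (SE 0.278, adjusted p = 0.0329) without the low-GC libraries and -1.43 (0.00568) with GC offsets. The call was lost in 9 of 21 settings, with log2 fold changes of -1.43 to -0.81 and adjusted p-values of 0.0521 to 0.288. These were the fits without the set as a block, without sets 2, 4 or 6 in turn, with sets 4 and 6 left out together (-0.89), with the lung index alone (-1.18) or beside the muscle index (-1.25), and with the metastases of a set summed or only the first of them taken. Aldoa is abundant in muscle, and of the 14 muscle markers 10 fell, with sums of 2.41 to 11849 CPM in primary tumours and 15.0 to 4029 in metastases. P6 had the highest Aldoa of all libraries and the lowest muscle sum, and with the muscle index alone as a covariate Aldoa was at -1.42 (adjusted p = 0.0143). The part of muscle RNA in the fall of Aldoa was not tested beyond these fits. Of the bases of its transcript, read as 50-base words, 13.5% also occur in other genes.

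The other 14 enzymes did not pass. Hexokinase 1 (Hk1), at the head of the pathway, was at 0.29 (log2 fold change, adjusted p = 0.291). Hexokinase 2 (Hk2), the hexokinase of muscle and many tumours, was at -0.31 (adjusted p = 0.494). The phosphofructokinase subunits Pfkl, Pfkm and Pfkp, which form the committed step, were at -0.27, -0.06 and -0.80 (adjusted p of 0.715, 0.941 and 0.157). Pfkp stood out by a single library, with 356 CPM in P6 against 28.9 to 97.5 CPM in the other 19. Pfkm was lowest in P4 (3.51 CPM) and P6 was the next lowest primary tumour (51.9 CPM), while the other primary tumours held 146 to 360 CPM. The metastases M1-2, M1-3 and M1-4, with summed muscle levels of 15.0, 22.6 and 23.5 CPM against 5242 or more in those 4 tumours, held 116, 136 and 129 CPM of Pfkm.

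Tpi1 (triose phosphate isomerase, which ends the preparatory stage), Pkm (pyruvate kinase, which ends the payoff stage) and Ldha (the lactate dehydrogenase subunit of glycolytic tissue) were abundant, with medians of 146, 234 and 180 CPM per kb. Pkm was at 201, 1003 and 2469 CPM in the lowest, the median and the highest primary tumour and at 125, 1606 and 2000 CPM in metastases, with no call (log2 fold change -0.14, SE 0.324, adjusted p = 0.813). The lowest 3 libraries for Pkm were M4-1, P4 and M3-2, the libraries low in GC-rich genes, and without them its log2 fold change was 0.17 (adjusted p = 0.710). Ldha was at -0.76 (SE 0.340, adjusted p = 0.150) and Ldhb, the subunit of heart and oxidative tissue, at 0.47 (SE 0.339, adjusted p = 0.389).

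Several glycolytic genes have processed pseudogenes, and reads that fit more than 1 place may be lost in such counts. Of the 50-base words in the longest transcript of Gapdh, 82.5% also occur in 222 other genes, and Gapdh was listed at only 3.64 to 42.6 CPM. The shared fraction was 72.2% for Eno1, 68.0% for Pgk1 and 41.5% for Pgam1. Their log2 fold changes were 0.18 for Gapdh, -0.28 for Eno1, -0.16 for Pgk1 and 0.04 for Pgam1, none called, and their levels are uncertain. Slc2a3, Slc16a1, Slc16a3, Aldoc, Adm, Pdk1 and Ddit4 shared none.

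**Figure D4:**
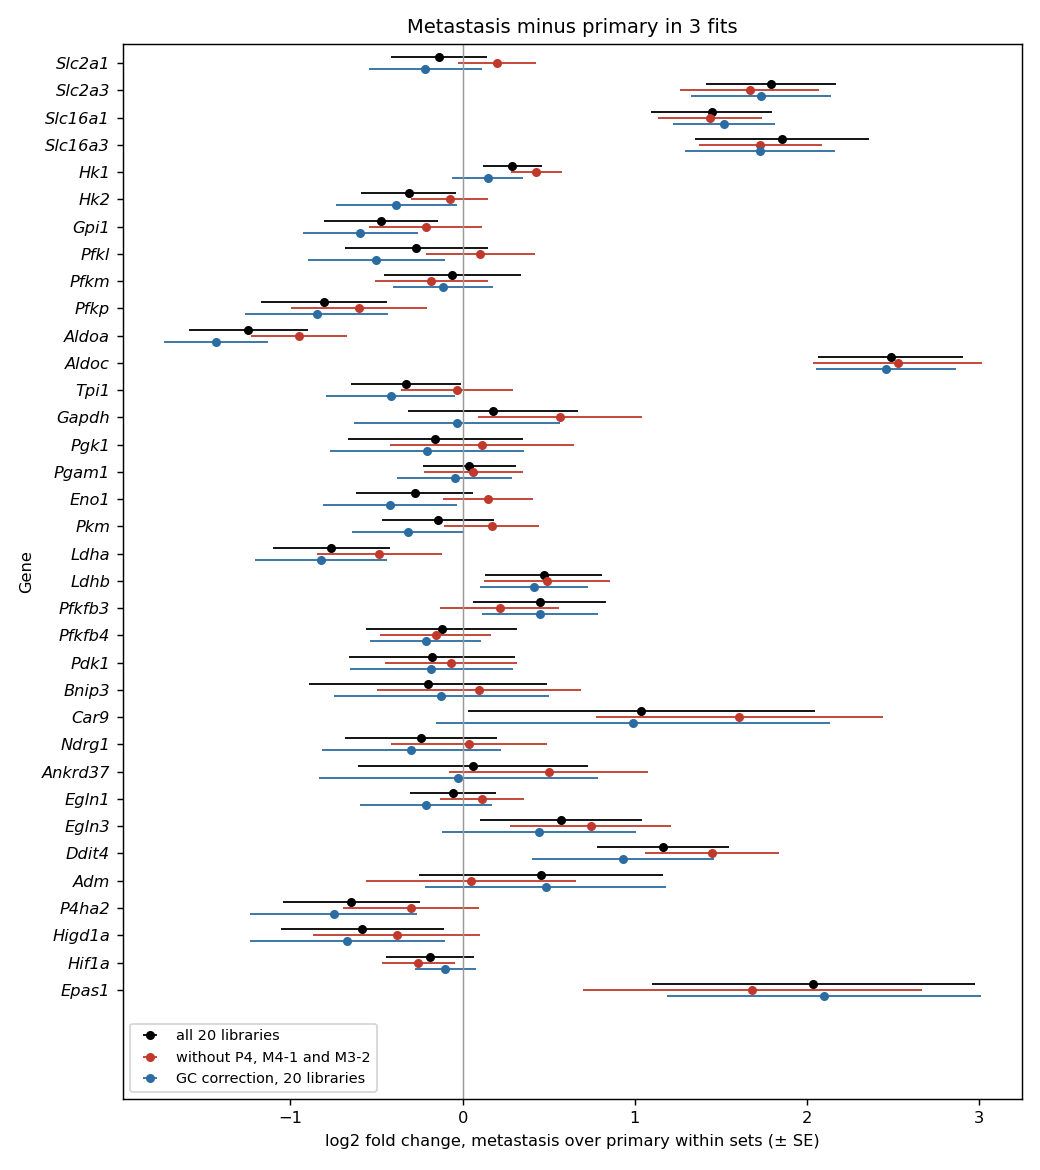
Log2 fold change of metastasis over primary with its SE for each member, from all 20 libraries (black), without P4, M4-1 and M3-2 (red) and with GC offsets (blue). Slc2a3, Slc16a1, Slc16a3, Aldoc and Aldoa keep their side of 0 in all 3 fits, and Slc2a1, Pfkl, Gapdh, Pgk1, Pgam1, Eno1, Pkm, Bnip3, Ndrg1, Ankrd37 and Egln1 change sign without a call.

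The kinases that steer glycolysis did not pass. Pfkfb3 and Pfkfb4 make the activator of phosphofructokinase, and Pdk1 restrains the oxidation of pyruvate by phosphorylating pyruvate dehydrogenase. Their log2 fold changes were 0.45 for Pfkfb3 (adjusted p = 0.484), -0.12 for Pfkfb4 (0.890) and -0.18 for Pdk1 (0.845). The primary tumours diverged among themselves. Pdk1 was at 467 CPM in P4 and 526 CPM in P6 against 49.2 to 85.0 CPM in the other 4, and no metastasis exceeded 171 CPM. Pfkfb3 went the other way, with 2.44 CPM in P4 and 6.43 CPM in P6 against 32.5 to 53.9 CPM in the other 4.

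Of the HIF targets outside glycolysis, 5 of 10 were higher in both P4 and P6 than in each of the other 4 primary tumours as counted (Bnip3, Ndrg1, Ankrd37, Egln1 and Higd1a). After the GC correction 9 of 10 were, all but Adm. The share of all genes placed in this way was not counted, so these counts do not set the HIF targets apart. Bnip3 (a mitophagy receptor), Ankrd37 (an ankyrin repeat protein), Higd1a (a mitochondrial inner membrane protein), Adm (the vasodilator peptide adrenomedullin), Car9 (a carbonic anhydrase of the cell surface), P4ha2 (a collagen prolyl hydroxylase), Ndrg1, Egln1 and Egln3 (HIF prolyl hydroxylases) and Ddit4 (an inhibitor of mTORC1) make up the group. Of these 10 genes 0 rose and 0 fell by edgeR, and 1 (Ddit4) had an unadjusted p under 0.05. DESeq2 and limma voom called Ddit4 (adjusted p = 0.00488 and 0.0179). The promoters of Bnip3 (chr7:138909507-138909756, minus strand), Ankrd37 (chr8:45999851-46000100, minus strand), Adm (chr7:110627407-110627656, plus strand) and Pdk1 (chr2:71872974-71873223, plus strand) are printed as above, because these genes were high together in P6. All are read on the gene's own strand, and coordinates are in GRCm38.p6.

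Bnip3: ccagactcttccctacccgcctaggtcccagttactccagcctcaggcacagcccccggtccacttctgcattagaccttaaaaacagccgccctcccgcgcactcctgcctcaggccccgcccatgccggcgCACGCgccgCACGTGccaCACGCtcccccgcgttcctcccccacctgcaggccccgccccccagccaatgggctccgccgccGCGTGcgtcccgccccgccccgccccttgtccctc

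Ankrd37: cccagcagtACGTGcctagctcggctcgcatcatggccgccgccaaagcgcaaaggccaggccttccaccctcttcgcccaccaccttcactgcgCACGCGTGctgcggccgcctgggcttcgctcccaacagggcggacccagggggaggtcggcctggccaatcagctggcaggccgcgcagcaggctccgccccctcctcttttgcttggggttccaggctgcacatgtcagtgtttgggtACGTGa

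Adm: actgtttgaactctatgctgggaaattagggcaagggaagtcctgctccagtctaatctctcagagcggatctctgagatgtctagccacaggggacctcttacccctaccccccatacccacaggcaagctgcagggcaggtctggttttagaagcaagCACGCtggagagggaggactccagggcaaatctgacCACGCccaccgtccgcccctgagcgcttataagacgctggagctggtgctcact

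Pdk1: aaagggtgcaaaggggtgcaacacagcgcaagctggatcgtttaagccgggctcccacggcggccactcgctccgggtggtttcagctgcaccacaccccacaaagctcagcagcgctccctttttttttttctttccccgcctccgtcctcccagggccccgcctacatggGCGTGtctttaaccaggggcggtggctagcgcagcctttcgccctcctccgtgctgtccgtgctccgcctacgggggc

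Bnip3 holds 4 separate stretches with a core in these bases, Ankrd37 3, Adm 2 and Pdk1 1, overlapping matches being joined. Over the RefSeq windows of 250 bases before to 50 after the start, 32 of the 35 members had an entry (Slc2a3, Ndrg1 and Epas1 had none), with 45 windows. ACGTG occurred on either strand in 57.8% of the members' windows and in 19.6% of all 32851 windows, and GCGTG in 60.0% and 32.4%. At least 1 of the cores was found in 9 of the 9 HIF targets with a window and in 14 of the 16 glycolytic enzymes. The share of all 27025 genes was 46.7%. A gene with more windows has more chances of a match, and by window the share was 77.8% of the enzymes' 27 and 43.8% of all. Both cores contain CG and the windows were not matched for base content, so these shares show no enrichment particular to HIF sites. Several of these genes were named as HIF targets because such sites are known in them, and a match is no measure of binding.

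Bnip3 (chromosome 7, 138890836 to 138909519, minus strand) was at 445 CPM in P4 and 300 CPM in P6 against 13.9 to 30.6 CPM in the other 4 primary tumours, and at 26.5 to 88.0 CPM in the metastases. After the GC correction P4 was at 189 CPM and P6 at 283 CPM. The primary tumours thus lay on both sides of the metastases, and the log2 fold change over all sets was -0.20 (SE 0.689, adjusted p = 0.882). By set, the metastases exceeded their primary tumour by 0.82, 1.73, 1.29 and 0.68 (log2) in sets 1, 2, 3 and 5 and lay below it by values of -2.83 and -3.08 in sets 4 and 6. The test of whether the difference varied between sets gave an adjusted p of 0.0164, and 0.0187 without the low-GC libraries. Each set has 1 primary tumour, so the spread in this test (8 residual degrees of freedom) comes only from the metastases of sets 1, 2, 3 and 6, and the single primary tumours are assumed to vary as these do. A deviant primary tumour cannot be told apart from a different response of its set. With sets 4 and 6 left out, the edgeR log2 fold change was 1.27 (SE 0.313, adjusted p = 0.0235). These were the sets where Bnip3 was lower in metastases, left out with that known, so this fit gives no support for a rise. Of the 50-base words of the Bnip3 transcript, 62.5% occur in other genes.

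Higd1a followed Bnip3, with 59.2 CPM in P4 and 72.4 CPM in P6 against 8.82 to 13.8 CPM in the other primary tumours and 7.96 to 29.9 CPM in metastases. Its difference also varied between sets (adjusted p = 0.0227, and 0.0370 without the low-GC libraries). Ankrd37 was at 52.1 CPM in P4 and 61.7 CPM in P6, and at most 7.39 CPM in the other primary tumours and 16.2 CPM in metastases. Its difference by set passed with all libraries (adjusted p = 0.0324) and not without the low-GC libraries (0.0997).

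Adm separated P4 from P6. It had 1 count (0.0509 CPM) in P4 and 112 CPM in P6, against 6.88 to 13.3 CPM in the other 4 primary tumours and 5.29 to 33.3 CPM in metastases. The differences by set ran from -3.10 in set 6 to 5.54 in set 4, and the test of their variation passed with all libraries (adjusted p = 0.00334) and without the low-GC ones (0.0172). Car9 separated them the other way, with 94.5 CPM in P4 and 5.96 CPM in P6 against 1.54 to 6.38 CPM in the other 4. Its highest metastasis was M1-2, with 99.0 CPM against 2.82 to 36.4 CPM in the other 13. P4ha2 was at 254 CPM in P6 against 26.1 to 40.8 CPM in the other 5 primary tumours as counted. After the GC correction it was high in P4 too, at 105 CPM against 22.7 to 34.3 CPM in P1, P2, P3 and P5 and 310 CPM in P6. Ndrg1 was at 260 CPM in P4 and 550 CPM in P6 against 63.2 to 113 CPM in the other 4. So the primary tumours nearly without host tissue RNA shared high Bnip3, Pdk1, Ankrd37, Higd1a, Ndrg1 and Egln1 with and without the correction, and differed in Adm and in the size of Car9.

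In all, the difference between metastases and primary tumour varied by set for 7 of the 35 members (Pfkp, Pgk1, Pfkfb3, Bnip3, Ankrd37, Adm and Higd1a), against 4.1% of all genes. Without the low-GC libraries it did so for 3 (Bnip3, Adm and Higd1a), against 2.05%, and with GC offsets for 13, against 7.67%. In the 15 libraries of sets 1, 2, 3 and 5 none of the members passed by edgeR, 0% of all 18804 genes did, and 1 member (Egln3) had an unadjusted p under 0.05. That small fit does not say where the variation lies, and its recovery was not simulated. In simulated data of all 20 libraries, with the difference in set 2 alone, the test recovered 0% of 4-fold and 8% of 8-fold differences. With sets 4 and 6 left out, 7 members rose and 0 fell (4.17% and 5.66% of all genes), which were Slc2a3, Slc16a1, Slc16a3, Aldoc, Bnip3, Car9 and Ddit4. These sets were chosen for this with their results known. With the muscle index as a covariate over all sets, 7 members rose and 10 fell (15.3% and 11.7% of all genes), Bnip3 now at -1.28 (adjusted p = 0.0177). The sign of the Bnip3 estimate thus differed between these fits. P4 and P6 lacked endothelial as well as muscle RNA, and the part of either was not tested.

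Ddit4 (chromosome 10, 59949669 to 59951834, minus strand) was just outside the threshold. It was at 9.13, 19.0 and 86.6 CPM in the lowest, the median and the highest primary tumour and at 13.0, 61.6 and 87.7 CPM in metastases. Its log2 fold change was 1.17 (SE 0.383, adjusted p = 0.0536), with the metastases above the primary tumour in 4 of 6 sets and at -0.19 and -0.15 in sets 4 and 6. It was 1.45 (adjusted p = 0.0231) without the low-GC libraries and 0.93 (0.245) with GC offsets. Ddit4 is also induced by glucocorticoids. Of 6 glucocorticoid-induced genes (Fkbp5, Per1, Tsc22d3, Zbtb16, Sgk1 and Klf9), 5 rose, beside 7.34% of all genes. Their summed level was 311 to 620 CPM in primary tumours and 664 to 1503 CPM in metastases. Taken singly, all but Fkbp5 overlapped between the groups, Sgk1 for instance with 318 CPM in P6 and 185 CPM in M4-1. The share of all genes without overlap was not counted. The part of glucocorticoid exposure in Ddit4 was not tested. Ndrg1 (log2 fold change -0.24), Egln1 (-0.06) and Egln3 (0.57) had adjusted p-values of 0.765, 0.912 and 0.460.

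The HIF subunits did not pass. Hif1a RNA was at 223, 377 and 1510 CPM in the lowest, the median and the highest primary tumour (P4) and at 170, 383 and 841 CPM in metastases (log2 fold change -0.19, SE 0.257, adjusted p = 0.674). Its 3 highest libraries after P4 were M4-1 (841 CPM), P6 (616 CPM) and M3-2 (602 CPM). Hif1a has the lowest GC content of the members, and in the low-GC libraries genes of low GC content were high. Epas1 encodes HIF-2 alpha, which is strongly expressed in endothelium and lung. It was at 0.611 CPM in P4 and 1.71 CPM in P6, at 31.7 to 71.8 CPM in the other primary tumours, and at 50.4 to 179 CPM in the metastases apart from M1-1, where it reached 1277 CPM. M1-1 also held the highest sums of lung epithelial (13649 CPM) and endothelial (1529 CPM) markers. Epas1 was lowest and highest in the libraries where the endothelial sum was. Between these extremes the order of both levels was not the same throughout. P2 and P3, with endothelial sums of 541 and 546 CPM, held 71.8 and 58.4 CPM of Epas1. M6-1 and M6-2, with sums of 208 and 205 CPM, held 167 and 179 CPM. The log2 fold change of Epas1, 2.04 (SE 0.939, adjusted p = 0.164), did not pass. With the lung epithelial index as a covariate it was 0.31 (adjusted p = 0.905), with the muscle index 3.98 (0.0200) and with both 2.18 (0.138), so the estimate moved widely with the tissue content allowed for. Without the low-GC libraries it was 1.68 (adjusted p = 0.253). The part of endothelial RNA was not tested.

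To set HIF targets beside glycolytic enzymes in each library, the log2 levels of the 10 HIF targets and of the 16 enzymes, each centred on the gene's mean over 20 libraries, were averaged. These are descriptions, since no hypoxic or normoxic control exists to scale them. P6 had the highest values of both, with a HIF target index of 1.80 and an enzyme index of 0.92. P4 had a HIF target index of 0.46 and an enzyme index of -1.42, and after correction for the GC trend 1.78 and 0.39. P1, P2, P3 and P5 had HIF target indices of -0.46, -1.25, -1.14 and -0.46 with enzyme indices near 0, from -0.27 to 0.15. So, after GC correction, primary tumours held the 2 highest and the 4 lowest HIF target indices of the 20 libraries, and the metastases lay between them.

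Among the metastases, M1-2 led on both indices, at 1.04 for HIF targets and 0.85 for enzymes. It held the highest Car9, Slc16a3 (255 CPM), Aldoc (30.0 CPM) and Adm (33.3 CPM) of the 14. The other metastases of its set, M1-3 and M1-4, were at 0.31 and 0.39 for HIF targets, and M1-1, rich in lung RNA, at -0.21. Across the 17 libraries not low in GC-rich genes, the members with the widest range from the lowest to the highest library were Epas1 (747-fold), Car9 (64.4-fold) and Aldoc (29.9-fold), and those with the narrowest were Hk1 (2.33-fold), Pkm (3.00-fold) and Egln1 (3.22-fold).

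**Figure D5:**
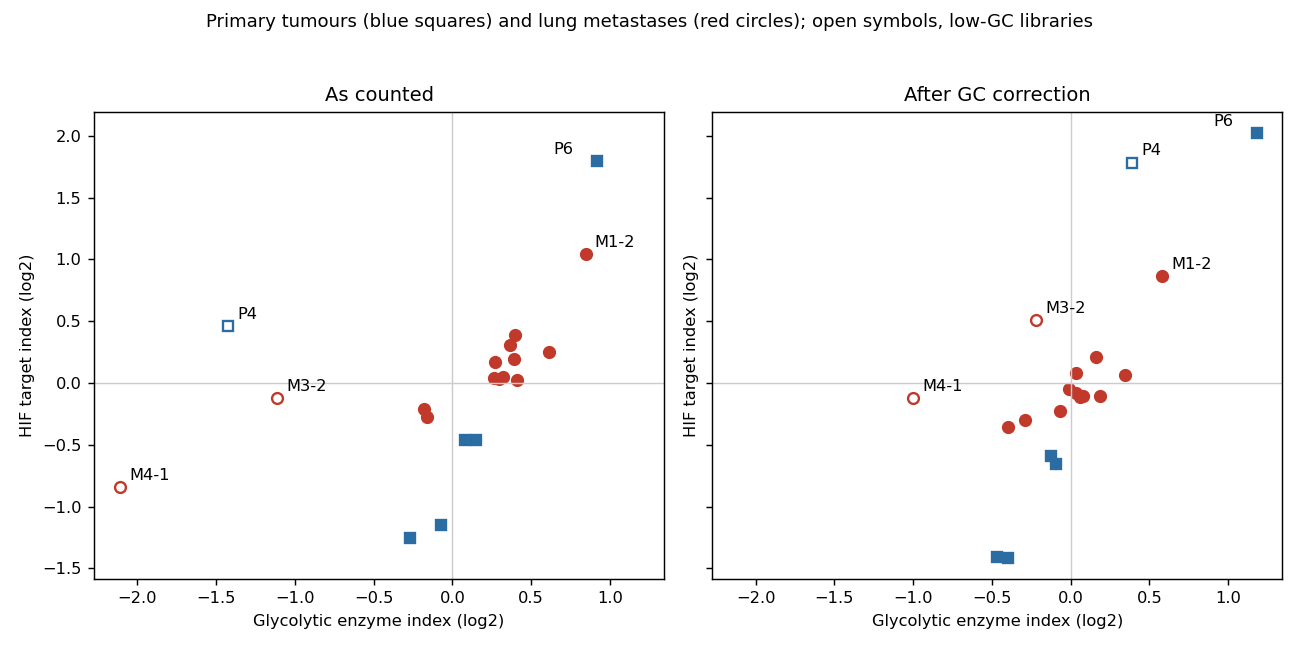
HIF target index (vertical axis) against glycolytic enzyme index (horizontal axis) of each library, in log2 units, as counted (left) and after GC correction (right). Blue squares are primary tumours, red circles metastases, and open symbols the 3 low-GC libraries; P6 is highest on the vertical axis in both panels, and P4 moves from 0.46 to 1.78 with the correction.

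Whether metastases matched with different primary tumours differed from each other was asked of the 12 metastases of sets 1, 2, 3 and 6. None of the 35 members passed by edgeR, while 0.321% of all genes did. At an unadjusted p under 0.05 there were 10 members, and DESeq2 called 8. The smallest adjusted p among members was that of Ldha (0.0719), followed by Gpi1 (0.0785). With GC offsets none passed either. Leaving out M3-1 brought 10 members past the threshold and leaving out M1-1 brought 2. No share of all genes is given for the unadjusted, DESeq2 or smaller fits, so those counts are no result about the members in particular.

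The rest of the pathway was read from lists of 42 other glycolysis genes (37 tested) and 55 other HIF pathway genes (54 tested). Of the glycolysis genes, 2 rose and 1 fell, shares no larger than the 7.34% and 6.44% of all genes. With the muscle index as a covariate 8 rose and 3 fell (15.3% and 11.7% of all genes), and with the lung index 0 rose and 0 fell (5.07% and 3.46%). Hkdc1, a hexokinase-like protein of epithelia, rose by 3.49 (SE 0.703, adjusted p = 0.00544) from 0.223 ± 0.270 CPM (SD, n = 6) to 2.06 ± 2.00 CPM (SD, n = 14). Bpgm, the bisphosphoglycerate mutase of red cells, rose by 1.42 (adjusted p = 0.00867), while the 8 erythroid markers measured rose too, from sums of 1.37 to 79.5 CPM to sums of 26.1 to 9193 CPM. Pdp2, a pyruvate dehydrogenase phosphatase, fell by 0.75 (adjusted p = 0.0136). Neither rise kept its call with the lung epithelial index as a covariate, where Hkdc1 was at 2.19 (adjusted p = 0.123) and Bpgm at 0.94 (0.189), nor did the fall of Pdp2 (-0.27, adjusted p = 0.532). All 3 passed without the low-GC libraries and with GC offsets. The part of red cells in the rise of Bpgm was not tested.

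Of the other HIF pathway genes, 3 rose and 4 fell, shares near the 7.34% and 6.44% of all genes. With the muscle index as a covariate 7 rose and 15 fell (15.3% and 11.7% of all genes). With the lung index 1 rose and 0 fell (5.07% and 3.46%). With the metastases of a set summed 1 rose and 0 fell (297 and 63 of all genes). Hif3a, an alpha subunit often expressed in lung and induced by glucocorticoids, rose by 4.93 (SE 0.768, adjusted p = 0.00155) from 0.178 ± 0.199 to 5.84 ± 3.32 CPM (SD, n = 6 and n = 14). Selenbp1, a selenium-binding protein, rose by 2.54 (adjusted p = 0.0238). P4ha1, the partner isozyme of P4ha2, fell by 1.32 (adjusted p = 0.0215). Gys1, a glycogen synthase, fell by 0.91 (adjusted p = 0.0269). Ppp1r3c, a glycogen-targeting phosphatase subunit, fell by 2.63 (adjusted p = 0.0317), and Rbpj, the Notch pathway transcription factor, fell by 1.05 (0.00578). Gys1 did not pass without the low-GC libraries (adjusted p = 0.0594), while Hif3a, Selenbp1, P4ha1, Ppp1r3c and Rbpj did, and all 6 passed with GC offsets. With the lung index Hif3a was at 4.69 (adjusted p = 0.0119) and Selenbp1 at 0.38 (0.764). Vegfa, the angiogenic HIF target, was at 155 ± 137 CPM in primary tumours and 112 ± 39.1 CPM in metastases (SD, n = 6 and n = 14), with a log2 fold change of -0.31 (SE 0.348, adjusted p = 0.603).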

How the data were processed

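RNA of 20 mouse tumour libraries was prepared with a stranded, ribosomal-RNA-depleted kit, per the labels. The values are raw gene counts as deposited by the authors. Reads were trimmed with Trimmomatic 0.36, aligned with STAR (listed as version 5.5.4b) to mm10 and counted with HTSeq, per the submitters' processing notes. Counts of genes without a symbol were 0.0170% of the total. The members and all lists were chosen with earlier results of these data known. Named are all 35 members, and of the pathway lists the genes that passed, at most 4 each way; 1 gene that passed is not reported here.

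Groups came from the titles. Counts were fitted in R 4.3.3 with edgeR 4.0.16 (filterByExpr, minimum count 10, TMM, robust glmQLFit, 13 residual degrees of freedom), with the matched set as a block and Benjamini-Hochberg adjustment over all genes tested at 0.05. F tests were run on sets among 12 metastases and on the interaction of tumour type and set. Log2 CPM used a prior count of 2. The GC trend of a library was a lowess curve (span 0.3) over 14790 genes. The fits were tested on simulated data, with 50 genes changed at each fold. The spread was that of the fit with sets as a block and no interaction. Differences between sets or by set were placed in set 2 alone, so recovery in the real tests may differ. The metastasis comparison recovered 6% of 2-fold, 70% of 4-fold and 88% of 8-fold changes (18276 genes), the test of sets among metastases 40% of 4-fold (18394 genes) and the interaction test 0% of 4-fold and 8% of 8-fold (18294 genes), so smaller changes could be missed. Alternatives included DESeq2 1.42.0 and limma 3.58.1. The labels match metastases with primary tumours. Deviations from group means correlated within sets by -0.22 to 0.27 (mean 0.0563). Metastases of 1 set differed beyond counting noise in every pair (chi-square per degree of freedom of 10.1 or more), so none was treated as 1 library deposited again. The values were lowest for M2-1 with M2-2 (10.1) and M6-1 with M6-2 (27.9), against 59.4 to 500 in the other pairs. Separate libraries of 1 tumour would also exceed counting noise, so this measure cannot exclude that a tumour was sampled more than once. The RefSeq promoter table is of GRCm38.p6. The choice of low-GC libraries, the GC offsets, the fit of sets 1, 2, 3 and 5 and the fit without M2-3 and M2-4 were added after seeing the data.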

Additional observations from a re-analysis of the deposited data

Results flagged for a closer look

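Among the 6 primary tumours, single libraries stood far from the others on the log2 scale for 7 members. P4 was low in Slc16a3 (0 CPM), Hk1 (33.6 CPM), Aldoa (112 CPM) and Pfkfb4 (0.509 CPM) and high in Car9 (94.5 CPM). P6 was high in Pfkp (356 CPM) and P4ha2 (254 CPM). In each the gap to the nearest tumour exceeded Dixon's limit for 6 samples, which chance passes in about 1 of 20 such groups, and 35 genes were looked at. Hk1 and Aldoa were no longer low in P4 after the GC correction, at 196 and 718 CPM, and P4ha2 was then high in P4 too, at 105 CPM.

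The difference between metastases and primary tumour varied between sets, by edgeR's interaction test, for Pfkp (adjusted p = 0.0372), Pgk1 (0.0282), Pfkfb3 (0.0413), Bnip3 (0.0164), Ankrd37 (0.0324), Adm (0.00334) and Higd1a (0.0227). For Bnip3, Ankrd37 and Higd1a the metastases were above the primary tumour in sets 1, 2, 3 and 5 and below it in sets 4 and 6. The part of tissue content in this split was not tested.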

How the results depend on the processing

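Each member was refitted under 21 other settings. Of the 735 values, 685 had the same outcome as the main fit, most of them no call in either. Calls were lost in 25, for Slc16a3 and Aldoa (9 each), Slc16a1 (6) and Slc2a3 (1), and gained in 24. In 1 a call came with the opposite sign: Bnip3, at -0.20 without a call, was at 1.27 with sets 4 and 6 left out. Those sets were left out with their results known. In 100 a sign changed with no call in either fit. Without the replicate block 2 members rose and 0 fell. Summing the metastases of a set left 1 that rose and 0 that fell (297 and 63 of all genes). Taking only the first metastasis of a set left 2 and 0 (307 and 108 of all genes). Fewer samples enter these fits. With sets 4 and 6 left out 7 rose and 0 fell (4.17% and 5.66% of all genes). With the muscle index as covariate 7 rose and 10 fell, with the lung index 2 rose and 0 fell, and with both 2 fell. Leaving out 1 set at a time, 2 to 5 rose (2 without set 2) and 0 or 1 fell (0 without sets 2, 4 or 6). Aldoc passed in all 21 settings, Slc2a3 in 20, Slc16a1 in 15, Slc16a3 and Aldoa in 12 each. Among metastases, 8 members differed between sets by DESeq2, 2 with the lung index, and 0 to 10 with 1 metastasis left out. The difference by set passed for 13 members with GC offsets (7.67% of all genes) and 3 without the low-GC libraries (2.05%). It passed for 0 in sets 1, 2, 3 and 5 alone (0% of all genes) and for 18 by DESeq2. No share of all genes is given for DESeq2 or for the refits among metastases, so those counts are no result about the members in particular. Beyond the fits with fewer samples, the cause was not tested. Set 4 cannot be judged apart from its GC loss, and each set has 1 primary tumour.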
